A study of Danio rerio with 7 samples.

Results

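In the brain of adult zebrafish, 73 of 51033 transcripts were counted in every library of brightly fluorescent ependymoglia and in no library of the dim ones. They were taken by a rule on the estimated counts, rounded to whole numbers: 10 or more counts in each of the 4 GFP high libraries, 0 in each of the 3 GFP low libraries, and a mean under 1000 TPM over the 7 libraries, a level corrected for transcript length and library size. The levels in the 7 libraries therefore chose the transcripts, and the difference between the groups is described here, with no test taken as support. The rule took 0.143% of all transcripts, and 0.271% of the 26911 that reached 10 counts in every GFP high library and met the limit on TPM. The mirror rule, 10 or more counts in every GFP low library and 0 in every GFP high library, took 82 transcripts, 0.317% of the 25878 that could meet it.

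GFP high cells (replicates 1 to 4) and GFP low cells (replicates 3 to 5) came from untreated gfap:GFP transgenic zebrafish aged 3 months, and every animal of both groups carried the reporter. The transgene puts green fluorescent protein under regulatory sequence of gfap, which codes for glial fibrillary acidic protein, a glial filament, and the cells were split by fluorescence intensity in a cell sorter, so the groups differ in reporter brightness and not in genotype or treatment. The number of animals per library is not given in the labels, so the spread between libraries may be technical. Both groups are labelled as ependymoglial cells. Cell type markers could not be checked, because the files name transcripts by identifier only and 0 of the identifiers matched the reference tables, which hold gene identifiers. For the same reason gene names, roles and sequences are not given, and 2 of the 73 transcripts are named by identifier.

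Ependymoglia are glia with the features of radial glia that border the ventricles, and in fish they serve as stem cells from which new neurons arise in adult life. A gene can give several transcripts through alternative promoters, splicing and polyadenylation, and these transcripts often share most of their sequence. A read pair that matches several transcripts cannot be assigned by sequence alone. kallisto, the quantification tool in the submitters' processing notes, divides such pairs among the matching transcripts by an iterative estimate, which gives counts that are not whole and can move a transcript close to 0 while a relative with shared sequence keeps the reads. A count of 0 for a transcript is therefore not a count of 0 for its gene. In sorted cells measured in bulk, fewer cells that hold a transcript and less of it per cell cannot be told apart.

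The libraries held between 20076189 and 25545724 counts in GFP high and between 10629779 and 21796141 in GFP low, so the group at 0 was the less deeply sequenced of the pair. CPM values, which relate a count to the size of its library, were scaled by TMM, edgeR's trimmed mean method. In the GFP low group, the 3 counts that an observed 0 allows corresponded to 0.0638 CPM when taken over the 3 libraries together. Limits and intervals cover counting error only, and the limits make no allowance for the rule having chosen the zeros. The intervals take transcripts as independent and do not measure the spread between libraries.

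The transcripts were mostly scarce in the bright cells. Their mean count over the 4 GFP high libraries had a median of 38.8 and ran from 14.3 to 447. For 49 of the 73 it lay under 50 counts and for 15 at 100 or more. Per length, the mean level in GFP high had a median of 1.51 TPM (quartiles 1.1 and 2.99), with 16 transcripts under 1 TPM and 12 at 5 TPM or more. The 18205 other transcripts that reached 10 counts in every GFP high library and had a mean count in the same range stood at a median of 105 counts and 4.87 TPM. The 73 thus stood lower than the others within the range of mean counts that the 73 themselves spanned.

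Together the 73 transcripts made up a very small part of the RNA. They summed to 4069, 4831, 6277 and 5393 counts in GFP high replicates 1 to 4, which was 0.0175%, 0.0241%, 0.0254% and 0.0211% of all counts, and to 0 in each GFP low library. On the CPM scale the sums were 181, 255, 259 and 222 in GFP high replicates 1 to 4, a mean of 229 CPM ± 36.3 (SD, n = 4). In TPM they were 175, 258, 242 and 219. Replicate 1 was the lowest on each of these scales. The most abundant transcript by TPM held 13.9% of the summed TPM, the first 5 held 35.8% and the first 10 held 51.9%.

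**Figure D1:**
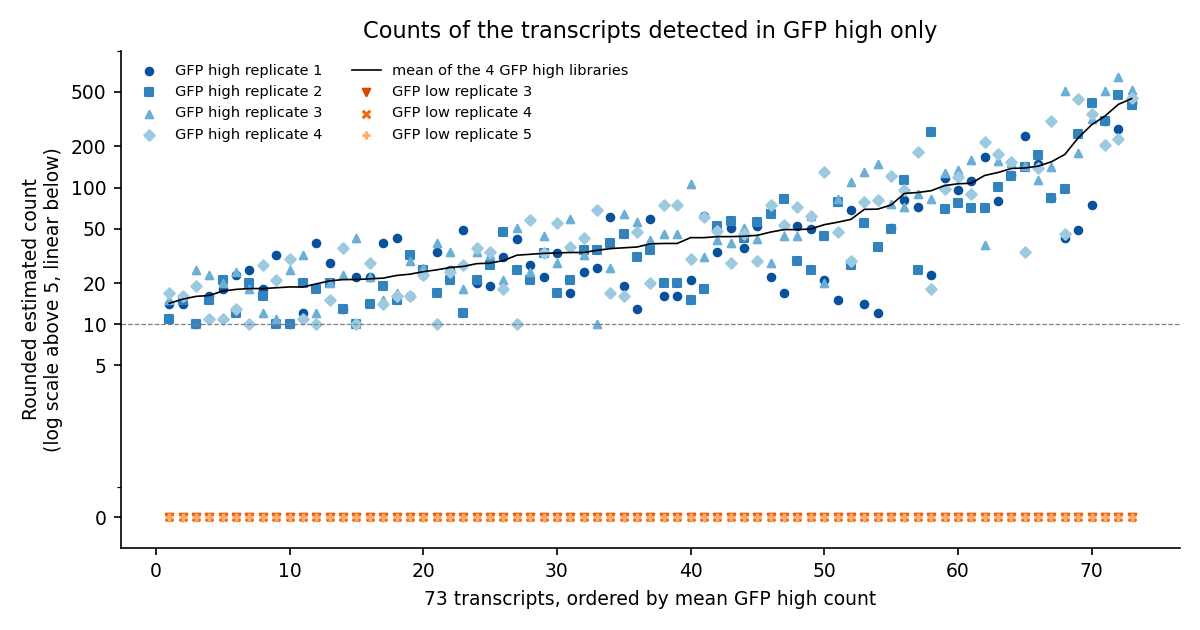
Rounded estimated count (vertical axis, log scale above 5) of each of the 73 transcripts, ordered along the horizontal axis by mean count in GFP high. Points are single libraries, the line is the mean of the 4 GFP high libraries and the dashed line is the minimum of 10 counts. All GFP low points lie at 0, while the GFP high means run from 14.3 to 447 and single GFP high libraries of a transcript can lie far from the mean.

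Because a count near the minimum can fall below it by sampling alone, the edges of the rule are given without a test. The lowest GFP high count was exactly 10 for 9 of the 73 and under 20 for 39, and 13 had at least 50 counts in every GFP high library. Just outside this edge, 10 transcripts were at 0 in GFP low with a lowest GFP high count of 9, and 70 had a lowest count of 5 to 9. At the other edge, 10 transcripts that reached 10 counts in every GFP high library had a single count over the 3 GFP low libraries, 11 had 2 counts and 18 had 3. The transcripts with a single GFP low count had a median mean count of 54.8 in GFP high, and the highest of them reached 509, above any of the 73.

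The zeros themselves were of 2 kinds. For 47 transcripts the deposited estimate was exactly 0 in all 3 GFP low libraries. The other 26 had an estimate above 0 that rounded to 0 in at least 1 of them. Those remainders were small: 8 transcripts exceeded 0.01 counts, 4 exceeded 0.1, the highest estimate was 0.342, and all remainders of the 73 transcripts over the 3 libraries summed to 1.51 counts. Had the transcripts been present in GFP low at their GFP high level, the median one would have given 78.8 counts over the 3 libraries, and the least abundant 29.6. The rule chose the GFP high levels and the zeros alike, so these figures describe the set and test nothing.

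With 3 counts over the GFP low libraries taken as the most a 0 allows, the bound on the fold over GFP low was at least 26.3-fold for the median transcript. The rule chose these zeros, so the bound describes these 7 libraries and need not hold in another. Among transcripts chosen without GFP low replicate 4, those with counts there stood at a median of 60.7% of their GFP high level. The bound ran from at least 9.87-fold to at least 312-fold, and it was 10-fold or more for 72 of the 73 and 100-fold or more for 8. Among these 8, the transcript of 1818 bases was at 1.91, 5.13, 21.1 and 1.89 CPM in GFP high replicates 1 to 4, with a bound of 118-fold. The bound takes the mean GFP high level as exact, so the spread among the GFP high libraries does not enter it. It follows depth as well as level: without GFP low replicate 4, the deepest library of that group, the median bound was 14.4-fold. All 73 passed edgeR's filter on low counts, and all 73 were past 5% FDR in the quasi-likelihood test and higher in GFP high, where 10.2% of the 33178 tested transcripts were called in that direction. The rule used this contrast, so that count follows from the choice of transcripts. With the replicate number as a block, 17 of the 73 were called, and 860 of all 33178 tested transcripts were called higher in GFP high. Only numbers 3 and 4 occur in both groups, so in that fit the other libraries do not inform the contrast.

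The transcript with the highest level per length was also the one with the most counts and was among the least variable. ENSDART00000135700.3, of 1219 bases, had 418, 403, 514 and 453 counts in GFP high replicates 1 to 4, against 0, 0 and 0 in GFP low replicates 3 to 5. Its levels were 29.5, 32.4, 34.2 and 28.2 TPM in GFP high, a mean of 31.1 TPM ± 2.70 (SD, n = 4). The 4 libraries lay within 1.15-fold of each other in CPM, and the deposited GFP low estimates were exactly 0. The GFP high estimates of this transcript were not all whole, the sign of reads shared out between transcripts. The bound, which covers counting error in GFP low only, was at least 312-fold, with 171-fold when GFP low replicate 4 was left out. At its GFP high level it would have given 936 counts over the GFP low libraries, again a description of the values that chose it.

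The transcript with the next highest mean count was less even. ENSDART00000037361.9, of 4994 bases, had 268, 478, 648 and 226 counts in GFP high replicates 1 to 4, against 0 in each GFP low library. In TPM this was 4.13, 8.40, 9.40 and 3.08, a mean of 6.26 ± 3.12 (SD, n = 4). Replicates 2 and 3 stood well above replicates 1 and 4. The deposited GFP low estimates were 0.00432, 0.189 and 8.64e-06 counts in replicates 3 to 5. The GFP high estimates of this transcript were not all whole either. The bound, which covers counting error in GFP low only, was at least 287-fold, with 157-fold when GFP low replicate 4 was left out.

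Most of the 73 rested at least in part on reads that were shared out between transcripts. In 70 of them (95.9%) the estimate was not whole, beyond a tolerance of 1e-06, in at least 1 GFP high library, and in 63 it was not whole in all 4. Among the 18205 other transcripts of the same count range, 14559 (80.0%) were not whole in at least 1. The mirror set was alike in this: 79 of its 82 transcripts (96.3%) were not whole in at least 1 GFP low library. Counted the other way, 70 of 14629 transcripts with shared-out reads (0.479%) and 3 of 3649 with whole estimates (0.0822%) were at 0 in GFP low. Transcripts of 1 gene can share their reads and are not independent, and these shares were not tested. Whether the zeros mark RNA that was missing from the dim cells or reads that the estimate gave to a related transcript was not tested.

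The share of transcripts at 0 in all GFP low libraries was highest at low levels in GFP high. It was 12 of 677 (1.77%, exact 95% interval 0.919 to 3.08) at a mean of 10 to 20 counts in GFP high and 37 of 4133 (0.895%, 0.631 to 1.23) at 20 to 50 counts. At 50 to 100 counts it was 9 of 4110 (0.219%), at 100 to 200 counts 10 of 4429 (0.226%), and at 200 to 700 counts 5 of 7521 (0.0665%, 0.0216 to 0.155). In each of these 5 classes the share was higher among transcripts with shared-out reads. At 20 to 50 counts, for example, 36 of 3378 such transcripts were at 0 (1.07%) and 1 of 755 with whole estimates (0.132%). At a mean of 100 to 700 counts, no transcript with whole estimates was at 0, of 912 and 1716 in the 2 highest classes. From the lowest class to the highest, the transcripts with whole estimates at 0 numbered 1, 1, 1, 0 and 0. The comparison therefore rests on very few transcripts and was not tested.

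**Figure D2:**
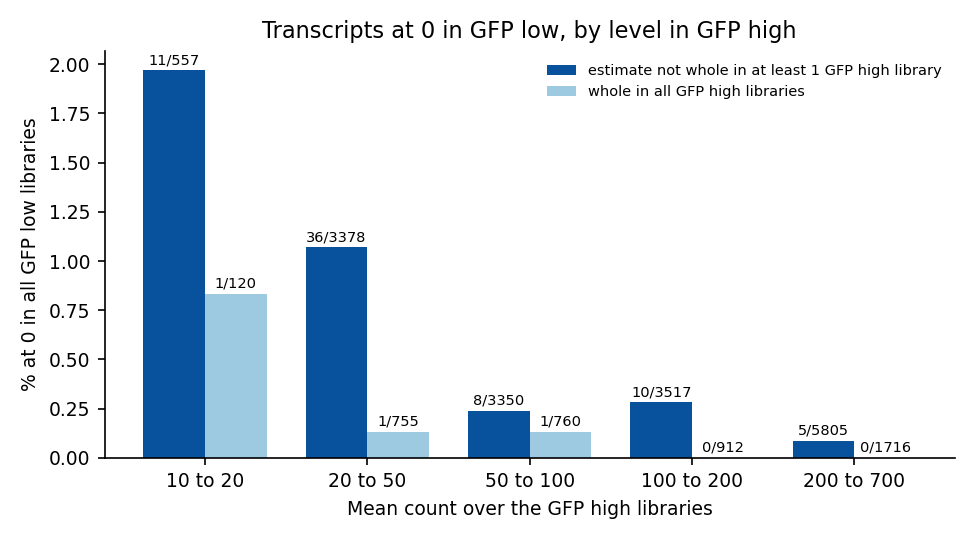
Percentage of transcripts at 0 counts in all 3 GFP low libraries (vertical axis), among transcripts that reached 10 counts in every GFP high library, by class of mean GFP high count (horizontal axis). Dark bars are transcripts whose estimate was not whole in at least 1 GFP high library, light bars those whole in all 4, and the numbers above are transcripts at 0 over transcripts in the class; the dark bar is the higher in each class, with 1.97% against 0.833% in the lowest.

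The 3 transcripts with whole estimates in every library are those whose reads show no sign of having been shared out. The most abundant of them, of 2884 bases, had 51, 50, 76 and 121 counts in GFP high replicates 1 to 4, against 0 in each GFP low library. This was 1.40, 1.56, 1.96 and 2.93 TPM in GFP high, and its bound was at least 51.0-fold. A transcript of 1479 bases had 34, 17, 39 and 10 counts in GFP high, against 0 in each GFP low library, with a bound of at least 17.3-fold. A transcript of 960 bases had 32, 10, 11 and 21 counts in GFP high, against 0 in each GFP low library, with a bound of at least 12.8-fold. In the last of these, replicates 2 and 3 lay at the minimum or a single count above it.

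Of the 73, a pair of 1887 bases each had identical deposited values in all 7 libraries, the form taken when reads cannot distinguish transcripts and are divided evenly. Each was at 16, 20, 46 and 74 counts in GFP high replicates 1 to 4, against 0 in each GFP low library, and their shared mean was 1.60 TPM ± 0.960 (SD, n = 4). Replicate 4 was 4.28-fold above replicate 1 in CPM. Counting them once leaves 72 sets of values. Such identical values were found for 284 of 47009 transcripts with an estimate above 0 in any library (0.604%) and for 54 of the 18205 of the same count range (0.297%).

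A library that took no part in the choice shows how far the pattern carries over. The rule was applied to 6 libraries and the count was read in the seventh, for each in turn. With a GFP low library left out, 145, 156 and 144 transcripts were chosen without replicates 3, 4 and 5. The 73 were at 0 in the library left out too, which is 50.3% without replicate 3 (exact 95% interval 41.9 to 58.7), 46.8% without replicate 4 (38.8 to 54.9) and 50.7% without replicate 5 (42.2 to 59.1). These intervals count transcripts as if independent and do not say how the pattern would vary between libraries. The background was all transcripts that reached 10 counts in every GFP high library and had a mean count in the range of the 73. Of these, 3.03%, 2.28% and 2.54% were at 0 in GFP low replicates 3, 4 and 5. Zeros were far more frequent among the chosen transcripts than in that background, which was not matched to them in level. The chosen transcripts were also not held to its range of counts. About as many of the chosen transcripts had counts in the GFP low library left out as had none.

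Where the left-out GFP low library had counts, they reached 10 for more of the transcripts than not. Replicate 3 had at least 10 counts for 42 of its 72 transcripts above 0, replicate 4 for 62 of 83 and replicate 5 for 44 of 71. Counts of 3 to 9 were found for 19, 17 and 21 transcripts, and counts of 1 or 2 for 11, 4 and 6. As a percentage of the mean CPM in GFP high, the level in the library left out had a median of 54.2% in replicate 3, 60.7% in replicate 4 and 54.9% in replicate 5. It was 50% or more of the GFP high level for 39, 49 and 40 of the transcripts above 0, and under 10% for 5, 9 and 7. The 83 transcripts that replicate 4 alone kept out of the set thus had a median of 25 counts there.

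With a GFP high library left out, the pattern again carried over to only a part of the chosen transcripts. The rule took 112, 115, 101 and 95 transcripts without replicates 1 to 4, and 65.2%, 63.5%, 72.3% and 76.8% of them had at least 10 counts in the library left out. The background held transcripts with at least 10 counts in the other 3 GFP high libraries and a mean count in the range of the 73. There, 97.3%, 95%, 98.2% and 98.0% had at least 10 counts in the library left out. That mean took in the library left out, which could drop transcripts low in it from the background. The chosen transcripts were not held to the range, and the background was not matched to them in level. The transcripts that failed were mostly at 0: 29 of the 39 that failed in replicate 1, 26 of the 42 in replicate 2, 19 of the 28 in replicate 3 and 14 of the 22 in replicate 4. Counts of 1 to 4 were found for 2, 6, 1 and 1 transcripts. Transcripts at 0 in all of GFP low were therefore also at 0 in a single GFP high library more often than at a few counts. Whether this sets them apart is not shown, because the share at 0 among background transcripts that failed was not taken. With whole estimates the sets were too small to compare, since 3 to 8 transcripts were chosen with each library left out.

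**Figure D3:**
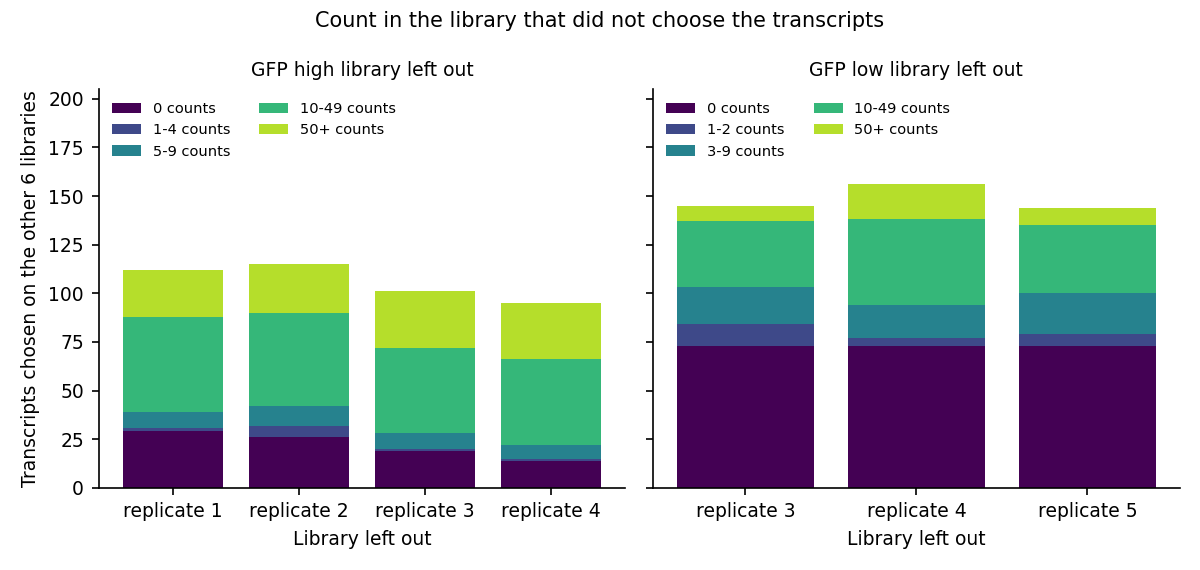
Number of transcripts chosen on 6 libraries (bar height), coloured by their count in the seventh, for each GFP high library left out (left panel) and each GFP low library left out (right panel). In the right panel the 73 transcripts at 0 are about as many as those with counts, and in the left panel 14 to 29 transcripts are at 0 in the GFP high library left out.

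Among themselves, the 4 GFP high libraries differed widely for most of the 73. The coefficient of variation of CPM had a median of 45.6% (quartiles 28.5 and 60.6) over the 73 transcripts, against 23.3% (15.6 and 34.2) over the other transcripts of the count range. The 82 transcripts of the mirror set had a median of 42.9% (quartiles 30.45 and 60.35) over the 3 GFP low libraries. Of those libraries, 2 were shallower than any GFP high library. The spread of other transcripts over GFP low was not taken, so an excess in the mirror set is not shown. Counting error is relatively larger at lower counts, so the classes of mean count were also set side by side. At a mean of 10 to 20 counts, the minimum of 10 in every GFP high library limits how far a transcript can vary. The medians were 35.9% for the 73 against 29.7% for the others at 10 to 20 counts, 45.6% against 32.5% at 20 to 50 counts and 63.6% against 26.8% at 50 to 100 counts, where 9 of the 73 fell. At 100 to 200 counts they were 28.7% against 21.7%, and at 200 to 700 counts 49% against 15.6%, with 5 of the 73 in the last class. The highest library exceeded the lowest by less than 2-fold for 20 of the 73 (27.4%) and for 67.2% of the others. It did so by 5-fold or more for 15 of the 73 (20.5%) and for 2.41% of the others.

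Of the 5 transcripts with the highest coefficient of variation, 3 were highest in GFP high replicate 3, and the others were highest in replicates 2 and 4. The most variable, of 619 bases, was at 3.75, 47.3, 12.9 and 2.63 TPM in GFP high replicates 1 to 4, against 0 counts in each GFP low library. Replicate 2 was the highest and lay 18.2-fold above replicate 4 in CPM. The next, of 1818 bases, was at 1.93, 4.96, 21.7 and 1.83 TPM in GFP high, against 0 counts in each GFP low library, with replicate 3 far above the rest. The transcript of 1869 bases was at 0.908, 0.759, 4.38 and 1.18 TPM, and that of 1773 bases at 0.565, 1.97, 6.46 and 3.29 TPM, with replicate 3 again the highest in each. The transcript of 1690 bases was at 1.02, 2.45, 0.918 and 5.54 TPM, with replicate 4 the highest. A transcript of 1393 bases, in contrast, stayed within 1.94-fold in CPM, at 9.03, 11.9, 6.53 and 7.38 TPM.

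Over the 73, replicates 1 to 4 were the highest of the GFP high libraries in CPM for 12, 20, 22 and 19 transcripts. They were the lowest for 26, 11, 8 and 28, which was not counted among the others of the count range. As percentages, replicates 1 to 4 were highest for 16.4%, 27.4%, 30.1% and 26.0% of the 73, and for 28.5%, 23.5%, 24.2% and 23.8% of the others of the count range. Replicate 1 was thus the highest less often among the 73 than among the others, a difference that was not tested.

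**Figure D4:**
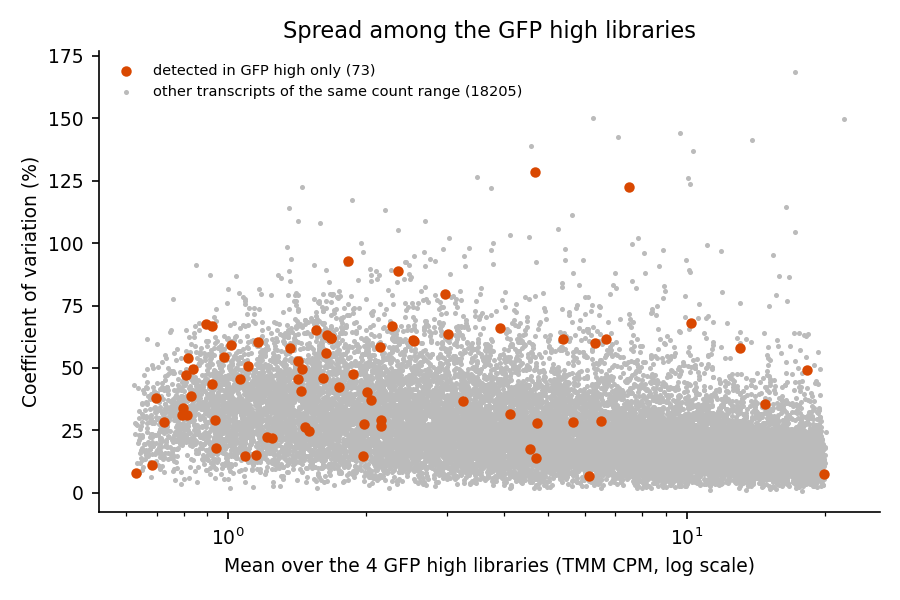
Coefficient of variation over the 4 GFP high libraries (vertical axis, %) against mean level in GFP high (horizontal axis, TMM CPM, log scale). Large points are the 73 transcripts and small points the 18205 others of the same count range; the medians are 45.6% and 23.3%, and the most abundant of the 73 lies low on the plot, at 7.65%.

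The lengths of the 73 transcripts lay within the range of the others of the count range, with a higher median. Their median length was 2003 bases (quartiles 1230 and 2976), against 1763 bases (1005 and 2819) for the others of the count range and 1488 bases for the 82 of the mirror set. Those under 1000 bases numbered 11 (15.1%), against 24.9% of the others, and 6 (8.22%) were of 5000 bases or more, against 6.59%. By class of mean GFP high count, median lengths of the 73 and the others were 1200 and 966 bases at 10 to 20 counts. They were 2003 and 1287 bases at 20 to 50 counts and 2072 and 1581 at 50 to 100. At 100 to 200 counts they were 3133 and 1953 bases, and at 200 to 700 counts 2408 and 2370. The 73 had the higher median in each class, which was not tested. The longest, of 13915 bases, had 84, 84, 141 and 308 counts in GFP high replicates 1 to 4, against 0 in each GFP low library. Its level per length was only 0.794 TPM ± 0.469 (SD, n = 4). The shortest, of 434 bases, had 22, 14, 22 and 28 counts in GFP high, against 0 in each GFP low library, and a mean of 5.69 TPM ± 0.950 (SD, n = 4).

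Compared with their mirror, the 73 were the less abundant set. Their median mean level was 1.51 TPM in GFP high, while the 82 transcripts at 0 in GFP high had a median of 5.40 TPM in GFP low. The median mean count was 38.8 for the 73 in GFP high and 60.2 for the 82 in GFP low. The mirror rule asked for 10 counts in 3 rather than 4 libraries, 2 of them shallower than any GFP high library, and the part of this in the difference was not tested. With the counts of every library thinned to the smallest total of 10629779, the rule took 31 transcripts in GFP high and the mirror rule 73 in GFP low. The thinning was a single random draw and kept the minimum of 10 counts. It thus raised the level asked for in every library but GFP low replicate 3, the smallest. The number detected in GFP high only thus moved with depth, and the numbers after thinning are a description.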

How the data were processed

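The authors deposited, for each of 7 libraries, estimated counts and TPM per Ensembl transcript with length and effective length (other columns, in bases). Per the submitters' processing notes, kallisto, sleuth and the build danRer10 were used, with versions and options not given in the sources used here. TPM values were used as deposited by the authors.

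Here estimated counts were rounded. The members, rule and comparisons were chosen with earlier results of these data known. All transcripts were tested together by quasi-likelihood in edgeR 4.0.16 under R 4.3.3, with TMM, filterByExpr, robust fitting and p-values adjusted by Benjamini and Hochberg at 5% FDR, a script tested on simulated data; DESeq2 1.42.0 was an alternative. CPM is TMM-scaled. Fold bounds are mean GFP high CPM over 3 counts in the summed GFP low libraries. The identifiers named are the highest in mean TPM and the next highest in mean count over GFP high. Other transcripts are singled out by length or spread, chosen after their values were seen. Marker lists needing gene symbols could not be applied. Totals were 10629779 to 25545724 counts per library.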

Additional observations from a re-analysis of the deposited data

Results flagged for a closer look

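The 4 GFP high libraries were searched for 1 that stood far from the rest, in 76 measures: the CPM of each of the 73 transcripts, their summed CPM and TPM, and their median count. In 4 of them, each a single transcript, the gap of 1 library to its nearest neighbour divided by the range exceeded Dixon's 95% critical value. Chance flags about 1 in 20 such groups, and the 4 make up 5.48% of the 73 transcripts, against 5.40% of the 18205 others of the count range. GFP high replicate 3 held 21.1 CPM of the transcript of 1818 bases, against 1.89 to 5.13 CPM in the other GFP high libraries. The transcript of 1869 bases was at 4.37 CPM in replicate 3, against 0.793 to 1.23 CPM in the others. The transcript of 1471 bases was at 2.38 CPM in replicate 4, against 0.989 to 1.20 CPM in the others. The transcript of 1908 bases was at 1.91 CPM in replicate 1, against 0.658 to 0.793 CPM in the others. All 4 were at 0 counts in the GFP low libraries.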

How the results depend on the processing

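The number of transcripts detected in GFP high only, 73, moved with most settings: it was 43 on unrounded estimates, 143 and 34 with minimums of 5 and 20 counts, 31 at equal depth and 3 with whole estimates only, and ran from 95 to 156 with each library left out. Leaving out a library or lowering the minimum loosens the rule, so the number could only stay or rise. A higher minimum, unrounded estimates and whole estimates only are stricter, so it could only stay or fall. The limit on mean TPM removed no transcript. Transcripts past 5% FDR numbered 7223; the count was 2135 with the replicate block, and 5326 to 6649 with each library left out. Of the 73, 17 were called with the block, in which only libraries numbered 3 and 4 compare the groups, and 73 with DESeq2. With at least 5 CPM in 3 libraries, the filter left 9 of them and all 9 were called. Without GFP high replicates 1 to 4, the filter on low counts left 63, 62, 63 and 69 of them, and all were called. Without GFP low replicates 3 to 5, all 73 were tested and 72, 71 and 72 were called. The 73 were chosen on this same contrast in all 7 libraries, so their calls under any setting describe the set and test nothing. Among all tested transcripts, 860 of 33178 were called higher in GFP high with the block and 4397 of 37122 with DESeq2. With at least 5 CPM it was 2992 of 18895, and with each library left out 2311 of 31933 to 3509 of 34582. The groups have replicate numbers 3 and 4 in common, and the labels do not say what the numbers mark. Deviations of same-numbered libraries from their group means were hardly correlated (r = 0.02 and 0.022 across transcripts). With so few such pairs, this cannot decide whether the libraries were paired. Leaving out libraries moved the median fold bound between 14.4 and 29.9, the summed CPM between 219 and 245 and the median coefficient of variation between 32.4% and 45.4%. The split by whole estimates and the levels in left-out libraries were chosen after seeing the data.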
